A study of Homo sapiens with 10 samples.

Results

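Forced expression of AIMP1 was compared with wild type in 2 established lines of multiple myeloma, a cancer of antibody-secreting plasma cells. The comparison uses 4 of the 10 mRNA libraries of the series: AIMP1-overexpressing (OE) H929 cells, OE cells of a line labelled OCI, and wild-type (WT) cells of each line. The 4 libraries were chosen by their labels, 1 OE and 1 WT library per line. The 6 other libraries were 4 titled as AIMP1 knockdown and 2 of cells treated with protein (libraries titled with AIMP1). They entered the filter on mean level, the estimate of spread, the rank of OE and WT within each line, and alternative fits. They did not enter the change of OE from WT within a line. The labels do not give the vector or promoter that drove AIMP1, whether cells were pooled or cloned, or an empty-vector control, so the OE and WT cells may differ in more than AIMP1.

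AIMP1 is a non-enzymatic scaffold subunit of the multi-tRNA synthetase complex, which holds several of the enzymes that charge tRNAs with amino acids. It is also released from cells, and the free protein or its C-terminal fragment acts as a cytokine on immune and endothelial cells. Plasma cells devote much of their mRNA to antibody secretion and depend on protein quality control.

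Values are FPKM, fragments scaled to transcript length and to the library total, as deposited. Of 58229 genes in the table, 12872 had a mean of at least 1 FPKM over the 10 libraries and were analysed as log2(FPKM + 1), a scale that understates changes of low genes. A change is OE minus WT within a line. A fitted difference (± SE) comes from limma, with cell line and manipulation as terms over all 10 libraries. Its p-values measure only the spread between these libraries. In this fit that spread is the difference between the knockdown libraries of a line and between the lines in their changes from WT. Part of it may be technical, and nothing in the labels says that the libraries came from separate cultures.

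The libraries carried the markers of the labelled cell type. JCHAIN, the joining chain of polymeric antibodies, stood at 2560 FPKM in H929 OE and 1818 FPKM in OCI OE cells, against 1863 FPKM in H929 WT and 2208 FPKM in OCI WT cells, and IRF4, a transcription factor of plasma cells, was between 293 and 360 FPKM in the 4 libraries. Of 18 T and NK cell markers, 9 were listed at 0 in all 4 libraries, CD3D, CD3E and CD3G among them, as were 6 of 16 myeloid and 7 of 16 stromal and endothelial markers. Relative depth, with the OCI WT library set to 100%, was estimated from the spacing of low values at 33.9% in H929 OE, 27.7% in OCI OE and 41.9% in H929 WT, while absolute depth is unknown here. The FPKM sum was 3850870 in H929 OE and 7890140 in OCI OE, against 3437320 in H929 WT and 4441060 in OCI WT. Over all tested genes the median change was 0.00 (H929) and 0.01 (OCI).

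AIMP1 itself was higher in both OE lines. It stood at 62.5 FPKM in the H929 OE library and 59.7 FPKM in the OCI OE library, against 14.5 FPKM in H929 WT and 14.3 FPKM in OCI WT, a level 4.31 times that of WT in H929 and 4.17 times in OCI. Both OE values lay above those of all other libraries, the highest of which was 20.3 FPKM in protein-treated H929 cells. The fitted log2 difference was 2.01 ± 0.53 (limma adjusted p = 0.742), so even the manipulated gene did not pass the threshold of 0.05. The spread in this fit includes the knockdown libraries, which differed in AIMP1. They had 14.2 and 3.55 FPKM in H929 and 5.03 and 2.35 FPKM in OCI, so the first H929 knockdown library was near WT. The values do not tell transcripts of the introduced copy from those of the cells' own gene.

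With 1 OE and 1 WT library per line, limma called 0 of 12872 genes higher (0%) and 0 lower (0%). Before adjustment, 506 genes (3.93%) were higher and 312 (2.42%) lower at p under 0.05. Direction was shared between the lines by 3979 genes that were higher in both (30.9%) and 3945 that were lower in both (30.6%). A change of at least 1 log2 unit in both lines, a description with no test, was found for 203 higher genes (1.58%) and 60 lower genes (0.466%). The 203 higher genes included 159 protein-coding genes with a symbol, and the 60 lower genes 27. Just inside the limit on the lower side lay PHF19, whose smaller change was -1.01. Just outside were NOTCH2NLA at 0.996 and an unnamed gene, ENSG00000242861, at -0.999. Of the 203, 191 kept a mean of at least 1 FPKM without the OE libraries, and of the 60, 54 did so without the WT libraries. In each direction 19 of these genes were listed at 0 in at least 1 of the 4 libraries.

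The rank of OE and WT among the 5 libraries of a line was a measure added after the values were seen. It shows whether a gene stood out in OE cells, in WT cells or, like MT-ND5, in both. OE was the highest library in both lines for 379 of all tested genes (2.94%) and the lowest for 560 (4.35%), while WT was the lowest for 923 (7.17%) and the highest for 845 (6.56%). Among the 203 higher genes, OE was the highest library in both lines for 50, and WT was the lowest for 111. Among the 60 lower genes, OE was the lowest for 9 and WT the highest for 21. These genes were chosen by OE minus WT, which favours such ranks over those of all genes. In those 111 and 21 genes the knockdown and protein-treated libraries also lay on the OE side of WT, and all of these comparisons share the WT libraries.

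**Figure D1:**
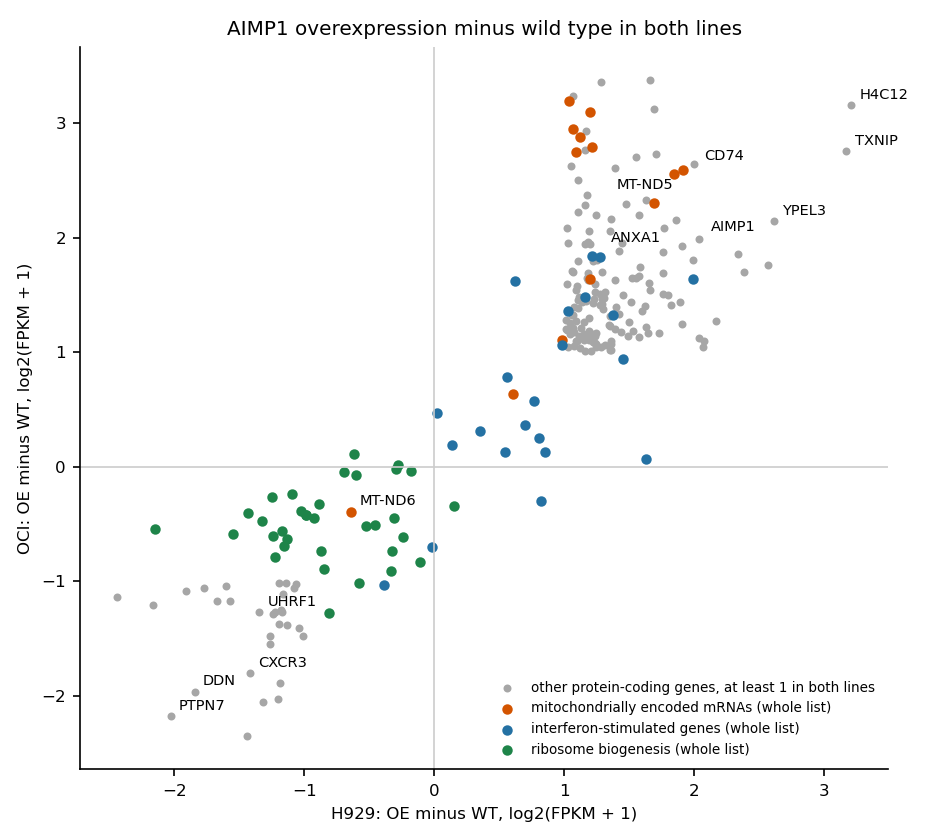
Change in H929 (horizontal axis) and in OCI (vertical axis), each OE minus WT on log2(FPKM + 1). Grey points are protein-coding genes that differed by at least 1 in the same direction in both lines, and coloured points are all tested members of 3 lists. Of the 13 mitochondrial mRNAs, 12 lie above 0 in both lines and MT-ND6 below 0 in both, and 31 of 34 ribosome biogenesis genes lie below 0 in both.

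The 15 protein-coding genes that were higher in both lines by the widest margin included regulators of metabolism and growth. TXNIP, an alpha-arrestin that binds thioredoxin and restrains glucose uptake, had 116 FPKM in H929 OE and 156 FPKM in OCI OE, against 11.97 FPKM in H929 WT and 22.3 FPKM in OCI WT (fitted difference 2.96 ± 0.76, limma adjusted p = 0.742). In H929 the OE value was the highest of 5 libraries, whereas in OCI the protein-treated library was higher still, at 368 FPKM. YPEL3, a small zinc-binding protein linked to growth arrest, had 55.1 FPKM in H929 OE and 67.2 FPKM in OCI OE, against 8.15 FPKM in H929 WT and 14.4 FPKM in OCI WT. Its relative YPEL5 had 17.8 and 14.7 FPKM in H929 OE and OCI OE, against 4.51 and 2.70 FPKM in H929 WT and OCI WT. For both YPEL genes OE lay above WT in each line, and a knockdown or protein-treated library of each line lay above OE.

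Cell-surface and signalling genes were also among these 15. ANXA1, annexin A1, a phospholipid-binding protein of anti-inflammatory signalling, had 9.40 FPKM in H929 OE and 14.5 FPKM in OCI OE, against 1.77 FPKM in H929 WT and 3.08 FPKM in OCI WT (1.92 ± 0.38, limma adjusted p = 0.536). Every other library of either line was lower, the nearest being protein-treated cells with 4.86 FPKM in H929 and 5.29 FPKM in OCI. Of the 13 tested annexins and S100 proteins, 4 were higher in both lines and 6 lower in both, with ANXA2 at 269 FPKM in H929 OE and 308 FPKM in OCI OE, against 289 and 330 FPKM in H929 WT and OCI WT. MME, the membrane peptidase neprilysin, also known as CD10, had 25.6 FPKM in H929 OE and 8.53 FPKM in OCI OE, against 5.68 FPKM in H929 WT and 1.73 FPKM in OCI WT, and OE was again the highest library in both lines. JUN, a subunit of the transcription factor AP-1, had 21.8 FPKM in H929 OE and 32.0 FPKM in OCI OE, against 5.98 FPKM in H929 WT and 3.96 FPKM in OCI WT. Protein-treated cells had more JUN than OE cells, with 75.2 FPKM (H929) and 82.3 FPKM (OCI). MAPK and immediate early genes, JUN included, were mixed, with 8 of 24 higher in both lines and 7 lower in both.

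The other members of the 15 were H4C12, CD74, AIMP1, MT-ND5, MT-ND4L, NMRK1, CALCOCO1, TRANK1 and SAMD12. NMRK1, a kinase that makes NAD precursors from nicotinamide riboside, had 17.03 and 18.7 FPKM in H929 OE and OCI OE, against 3.97 and 3.42 FPKM in H929 WT and OCI WT. CALCOCO1, a receptor for autophagy of the endoplasmic reticulum, had 39.6 and 35.7 FPKM in H929 OE and OCI OE, against 7.02 and 9.11 FPKM in H929 WT and OCI WT. An OCI knockdown library lay above OCI OE for both genes, at 28.2 FPKM for NMRK1 and 54.4 FPKM for CALCOCO1. Protein-treated cells also had more CALCOCO1 than OE cells, with 67.9 FPKM (H929) and 38.3 FPKM (OCI). H4C12, a histone H4 gene, had 1233 and 1252 FPKM in H929 OE and OCI OE, against 133 and 139 FPKM in H929 WT and OCI WT. It shares its sequence closely with other H4 genes, so its value is uncertain, and it stood at 1311 and 1828 FPKM in the 2 H929 knockdown libraries. Of the 15 genes, 6 had OE as the highest of 5 libraries in both lines, and 8 had WT as the lowest.

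Several further genes stood out in OE cells and were picked out after their values were seen. MARCKS, a membrane-bound substrate of protein kinase C, had 7.43 FPKM in H929 OE and 8.12 FPKM in OCI OE, against 1.61 FPKM in H929 WT and 0.0436 FPKM in OCI WT (2.41 ± 0.39, limma adjusted p = 0.296). SATB1, a chromatin organizer of lymphocytes, had 6.87 and 12.7 FPKM in H929 OE and OCI OE, against 1.33 and 3.24 FPKM in H929 WT and OCI WT. ERBB2, a receptor tyrosine kinase, had 3.77 and 3.08 FPKM in H929 OE and OCI OE, against 0.602 and 0.282 FPKM in H929 WT and OCI WT. In all 3 genes OE was the highest of 5 libraries in both lines, though ERBB2 was low in every library.

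**Figure D2:**
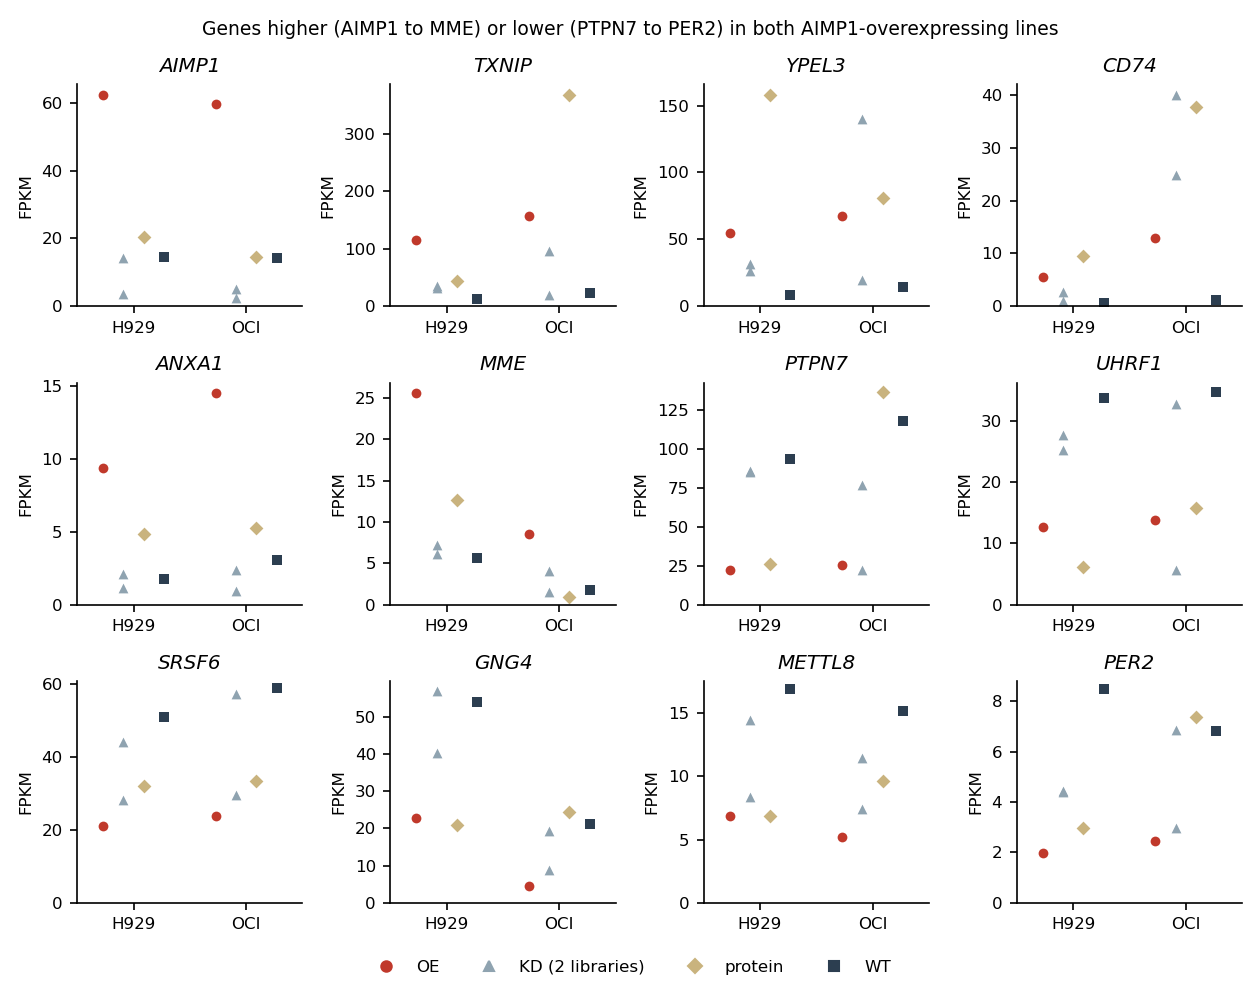
FPKM (linear axes from 0) of 6 higher and 6 lower genes in every library of H929 and OCI, in the order OE, knockdown (KD, 2 libraries), protein-treated and WT. OE is the highest library in both lines for AIMP1, ANXA1 and MME and the lowest for SRSF6, METTL8 and PER2, while TXNIP, YPEL3 and CD74 are higher in some knockdown or protein-treated libraries.

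The 15 protein-coding genes that were lower in both lines by the widest margin were PTPN7, DDN, CXCR3, F2RL3, UHRF1, NRROS, ARMC5, SRSF6, GNAL, GNG4, METTL8, NETO2, SLC25A33, PER2 and C3orf80. PTPN7, a phosphatase of blood cells that acts on MAP kinases, had 22.3 FPKM in H929 OE and 25.3 FPKM in OCI OE, against 93.8 FPKM in H929 WT and 118 FPKM in OCI WT (-2.10 ± 0.76, limma adjusted p = 0.742). Both OE libraries lay below both WT libraries, and so did protein-treated H929 cells at 26.0 FPKM and an OCI knockdown library at 22.1 FPKM. CXCR3, a chemokine receptor for interferon-induced chemokines, had 1.76 and 0.282 FPKM in H929 OE and OCI OE, against 6.37 and 3.47 FPKM in H929 WT and OCI WT. F2RL3, a thrombin receptor, had 12.5 and 4.77 FPKM in H929 OE and OCI OE, against 32.5 and 23.0 FPKM in H929 WT and OCI WT. The G protein subunit gene GNG4 had 22.8 and 4.41 FPKM in H929 OE and OCI OE, against 53.8 and 21.1 FPKM in H929 WT and OCI WT. These 4 genes code for signalling proteins, and in none of them was OE the lowest library of both lines.

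OE was the lowest of 5 libraries in both lines for 4 of the 15 genes, namely SRSF6, METTL8, PER2 and C3orf80. SRSF6, a splicing factor, had 21.1 FPKM in H929 OE and 23.8 FPKM in OCI OE, against 50.8 FPKM in H929 WT and 58.8 FPKM in OCI WT (-1.25 ± 0.33, limma adjusted p = 0.742). METTL8, which methylates mitochondrial tRNAs, had 6.83 and 5.23 FPKM in H929 OE and OCI OE, against 16.9 and 15.2 FPKM in H929 WT and OCI WT. PER2, a repressor of the circadian clock, had 1.97 and 2.46 FPKM in H929 OE and OCI OE, against 8.47 and 6.803 FPKM in H929 WT and OCI WT. UHRF1, which guides maintenance of DNA methylation, had 12.6 and 13.9 FPKM in H929 OE and OCI OE, against 33.7 and 34.8 FPKM in H929 WT and OCI WT, and WT was its highest library in both lines. The actin genes ACTB and ACTG1, often used as references and named here after their values were seen, were also lower. ACTB had 1479 FPKM in H929 OE and 1522 FPKM in OCI OE, against 3096 FPKM in H929 WT and 3097 FPKM in OCI WT, and in an OCI knockdown library it was lower still, at 905 FPKM.

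Messenger RNAs encoded by the mitochondrial genome were higher in OE cells of both lines. This genome is transcribed from both strands as long precursors, and its 13 mRNAs encode core subunits of the respiratory chain and of ATP synthase. Of the 13, 12 were higher in both lines and 10 differed by at least 1 in both, with a median change of 1.12 in H929 and 2.59 in OCI and a median fitted difference of 2.002. For 10 of the 13 OE was the highest of 5 libraries in both lines, and for 11 WT was the lowest. None was called by limma, and 11 were higher at an unadjusted p under 0.05.

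MT-ND5, a complex I subunit, had the smallest adjusted p of all tested genes. It stood at 1026 FPKM in H929 OE and 847 FPKM in OCI OE, against 271 FPKM in H929 WT and 139 FPKM in OCI WT (2.25 ± 0.25, limma adjusted p = 0.0610, higher in 2 of 2 lines). The 6 remaining libraries lay between OE and WT of their line, from 287 FPKM in protein-treated OCI cells to 573 FPKM in an H929 knockdown library. MT-ND4L, also of complex I, had 3913 FPKM in H929 OE and 3621 FPKM in OCI OE, against 1086 FPKM in H929 WT and 613 FPKM in OCI WT. MT-ATP6, of ATP synthase, had 4016 FPKM in H929 OE and 3600 FPKM in OCI OE, against 1731 FPKM in H929 WT and 517 FPKM in OCI WT. In these genes too OE was above every other library of its line.

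The cytochrome c oxidase genes differed in size. MT-CO2 had 6752 FPKM in H929 OE and 6860 FPKM in OCI OE, against 3213 FPKM in H929 WT and 886 FPKM in OCI WT, whereas MT-CO1 had 6022 FPKM in H929 OE and 5010 FPKM in OCI OE, against 3947 FPKM in H929 WT and 3233 FPKM in OCI WT. MT-CO1 and MT-CO3 were higher in protein-treated OCI cells than in OCI OE cells. MT-ND6 was the only mitochondrial mRNA that was lower in both lines, with 265 FPKM in H929 OE and 237 FPKM in OCI OE, against 412 FPKM in H929 WT and 311 FPKM in OCI WT (-0.51 ± 0.41). It is also the only one encoded on the opposite strand to the other 12. The sources used here do not say whether counting used strand, so reads of MT-ND6 cannot be told apart from RNA of the other strand at the same place. The mRNAs of MT-ND4 and MT-ND4L, and of MT-ATP6 and MT-ATP8, overlap, so their values are not independent.

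The mitochondrial mRNAs made up a larger share of the FPKM sum in OE than in WT cells, which is not a share of reads. With 5 abundant short RNAs set aside, they held 6.12% of the FPKM sum in H929 OE and 3.59% in OCI OE, against 2.77% in H929 WT and 1.20% in OCI WT. The 4 knockdown libraries had 3.80% and 4.06% in H929 and 1.99% and 2.0% in OCI, and the protein-treated ones 1.61% in H929 and 1.47% in OCI. OE had the largest share of its line, and each H929 library had a larger share than the OCI libraries of the same kind. The share also depends on the other RNAs in the sum. Protein-treated H929 cells had a smaller share than H929 WT, yet higher FPKM of every mitochondrial mRNA except MT-ND6 and MT-ATP8. The mitochondrial ribosomal RNA genes MT-RNR1 and MT-RNR2 were at or under 0.241 FPKM in the 4 libraries, so they give no independent measure of mitochondrial RNA. In bulk RNA, more mitochondrial genomes or cells rich in mitochondria and more RNA per genome cannot be told apart.

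**Figure D3:**
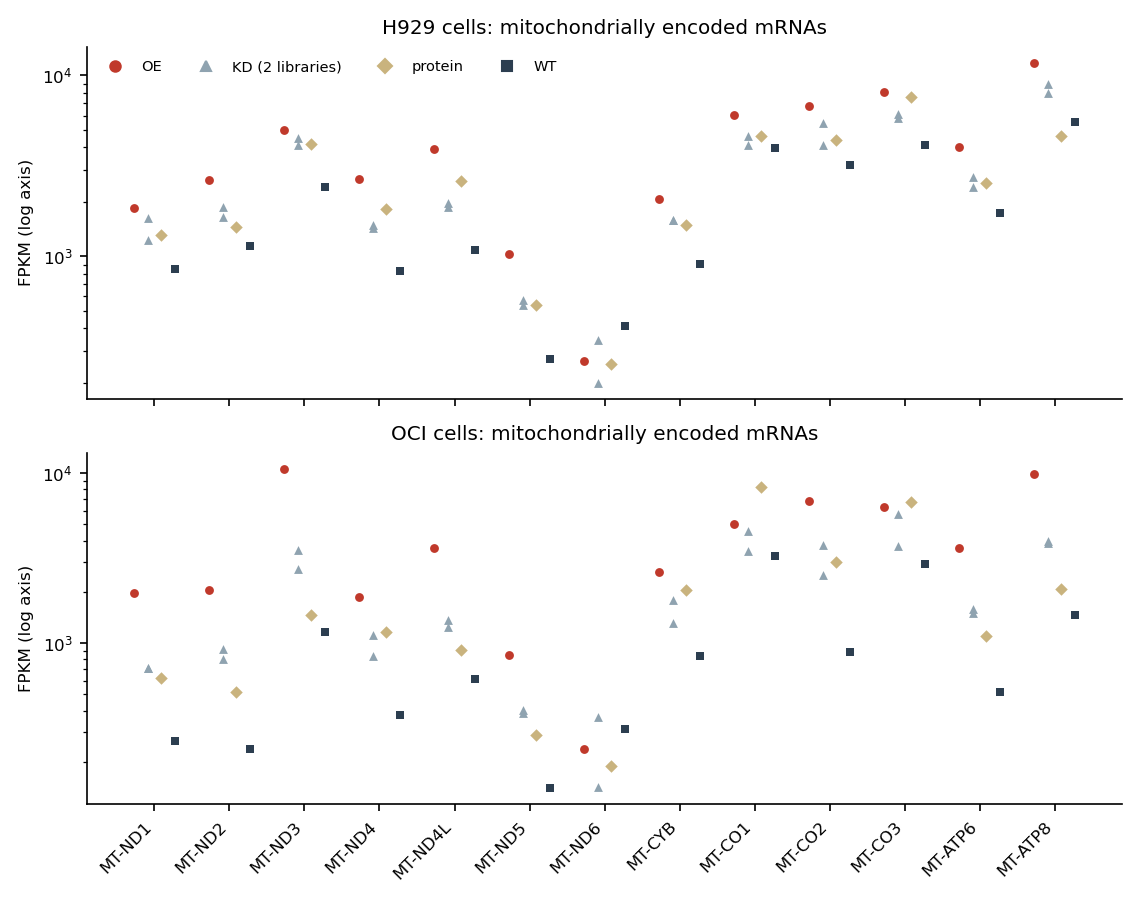
FPKM (log axes) of the 13 mitochondrial mRNAs in the 5 libraries of H929 (top) and of OCI (bottom), in the order OE, knockdown (2 libraries), protein-treated and WT. OE is the highest library of both lines for 10 genes, and MT-ND6 is lower in OE than in WT in both panels.

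Nuclear genes of mitochondria did not follow the mitochondrial mRNAs. Of 42 tested nuclear genes of oxidative phosphorylation, 10 were higher in both lines and 15 lower in both, with a median change of -0.18 in H929 and 0.18 in OCI. NDUFS3, a complex I subunit, had 108 FPKM in H929 OE and 143 FPKM in OCI OE, against 194 FPKM in H929 WT and 187 FPKM in OCI WT. COX7C, of cytochrome c oxidase, had 977 FPKM in H929 OE and 953 FPKM in OCI OE, against 690 FPKM in H929 WT and 700 FPKM in OCI WT. Of 17 tested genes that copy, transcribe or process mitochondrial DNA and RNA, 2 were higher in both lines and 12 lower in both, with median changes of -0.35 (H929) and -0.25 (OCI).

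Most genes of this group were lower, TFAM and TFB2M among them, while 2 were higher in both lines. TFAM, which packages mitochondrial DNA and starts its transcription, had 14.2 FPKM in H929 OE and 15.2 FPKM in OCI OE, against 26.8 FPKM in H929 WT and 35.6 FPKM in OCI WT (-1.03 ± 0.41, limma adjusted p = 0.742). TFB2M had 9.13 and 11.4 FPKM in H929 OE and OCI OE, against 13.2 and 15.7 FPKM in H929 WT and OCI WT. SUPV3L1, a helicase of mitochondrial RNA decay, had 14.8 and 16.1 FPKM in H929 OE and OCI OE, against 30.9 and 23.0 FPKM in H929 WT and OCI WT. TFB1M, which methylates mitochondrial ribosomal RNA, had 13.5 and 8.84 FPKM in H929 OE and OCI OE, against 5.94 and 4.30 FPKM in H929 WT and OCI WT. POLRMT, the mitochondrial RNA polymerase, was split between the lines, at 32.5 FPKM in H929 OE and 52.1 FPKM in OCI OE, against 41.7 FPKM in H929 WT and 35.6 FPKM in OCI WT. The list's median fitted difference of -0.32 was -0.10 without the OCI WT library and -0.13 without the H929 OE library.

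Interferon-stimulated genes were higher in most cases. They are switched on when interferon receptors activate transcription factors such as STAT2 and IRF9, which bind the interferon-stimulated response element in promoters. Of 44 list members found, 22 reached a mean of 1 FPKM and were tested, and the others were too low to be described. Of the 22 tested, 19 were higher in both lines and 2 lower in both, against 30.9% and 30.6% of all genes. The median change was 0.82 in H929 and 0.52 in OCI. Differences of at least 1 in both lines were seen in IFI6, SAMD9L, STAT2, IRF9, IFI27 and PARP14, 10 members were higher at an unadjusted p under 0.05, and none was called by limma. OE was the highest of 5 libraries in both lines for 2 members, PARP14 and DTX3L, and WT was the lowest for 8.

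Promoters of these 6 genes are in RefSeq's table for GRCh38.p14, and the 250 bases before each start were searched for GAAANNGAAA, the core of the interferon-stimulated response element, on both strands. The motif was found in 3 of the 6 genes (IFI6, IFI27 and PARP14) and in 1061 of 35116 promoters in the table (3.02%). All 6 come from a list of interferon-stimulated genes, and the share among its other members was not computed. The 2 figures therefore do not relate the motif to the level in OE cells. The windows that hold it are shown because these are the genes whose higher level in OE cells is described here. They are printed 5′ to 3′ on the gene's strand, with the motif in capitals. The IFI6 window is chr1:27672246-27672378 (minus strand, motifs from -156, -115 and -93). The IFI27 window is chr14:94110598-94110680 (plus strand, motifs from -108 and -95 relative to the first of its 2 listed starts, the site at -108 read on the opposite strand). The PARP14 window is chr3:122680780-122680838 (plus strand, motif from -29).
IFI6: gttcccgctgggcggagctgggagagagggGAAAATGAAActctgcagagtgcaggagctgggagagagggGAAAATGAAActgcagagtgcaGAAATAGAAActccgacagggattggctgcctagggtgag
IFI27: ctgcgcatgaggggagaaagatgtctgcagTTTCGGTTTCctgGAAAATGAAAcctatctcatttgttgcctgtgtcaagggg
PARP14: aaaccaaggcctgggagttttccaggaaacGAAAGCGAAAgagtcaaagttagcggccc
The letters were not found in the windows of SAMD9L, STAT2 and IRF9. For SAMD9L alone, the bases just after the listed start were not found in a reference transcript of the gene, so its window is less certain. CACGTG, the E-box that factors of the glucose response can bind, was not found in either listed promoter of TXNIP, was found in IRF9 at -71, and is in 2228 of the 35116 promoters (6.34%). Only these exact letters within 250 bases were searched, so E-boxes with other letters, or sites further away, would be missed. A match is a description of letters, and binding was not measured.

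IFI6, a mitochondrial protein induced by type I interferon, had 9.38 FPKM in H929 OE and 9.37 FPKM in OCI OE, against 1.61 FPKM in H929 WT and 2.33 FPKM in OCI WT (1.82 ± 0.40, limma adjusted p = 0.742). PARP14, an ADP-ribosyltransferase, had 6.63 and 7.43 FPKM in H929 OE and OCI OE, against 2.74 and 2.28 FPKM in H929 WT and OCI WT. IFI27 was low, with 5.15 and 3.58 FPKM in H929 OE and OCI OE, against 1.75 and 0.641 FPKM in H929 WT and OCI WT. All 3 genes with the printed motif lay higher in OE than in WT of the same line, as they were chosen to.

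Signalling factors were among the higher members. STAT2 had 32.7 FPKM in H929 OE and 35.2 FPKM in OCI OE, against 12.9 FPKM in H929 WT and 9.19 FPKM in OCI WT (1.55 ± 0.46). IRF9 had 11.5 FPKM in H929 OE and 19.8 FPKM in OCI OE, against 4.38 FPKM in H929 WT and 4.78 FPKM in OCI WT (1.53 ± 0.39). ISG15, a ubiquitin-like protein that interferon induces strongly, had 46.9 and 69.7 FPKM in H929 OE and OCI OE, against 42.5 and 61.1 FPKM in H929 WT and OCI WT. OAS2 and IFITM2 were lower in both lines, IFITM2 with 24.9 and 11.4 FPKM in H929 OE and OCI OE, against 32.9 and 24.5 FPKM in H929 WT and OCI WT. The list thus held members near WT and below it beside those that were higher.

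Antigen presentation genes were higher in most cases, with wider margins in OCI. CD74, the invariant chain that guides MHC class II molecules, had 5.53 FPKM in H929 OE and 12.8 FPKM in OCI OE, against 0.634 FPKM in H929 WT and 1.21 FPKM in OCI WT (2.32 ± 0.74, limma adjusted p = 0.742). In OCI both knockdown libraries, at 24.8 and 40.0 FPKM, were above OE. CIITA, the class II transactivator, had 6.97 and 9.34 FPKM in H929 OE and OCI OE, against 2.87 and 3.62 FPKM in H929 WT and OCI WT. The class II molecules themselves were near 0 in H929. HLA-DRA had 1.24 FPKM in H929 OE and 85.1 FPKM in OCI OE, against 0.249 FPKM in H929 WT and 4.43 FPKM in OCI WT. HLA-DPA1 had 0.411 FPKM in H929 OE and 51.4 FPKM in OCI OE, against 0.847 FPKM in OCI WT, and was listed at 0 in H929 WT. The OCI knockdown libraries also lay far above OCI WT, with 69.6 and 104 FPKM of HLA-DRA and 41.3 and 60.3 FPKM of HLA-DPA1.

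Of 13 tested class II genes, 10 were higher in both lines and 1 lower in both, with a median change of 0.35 in H929 and 2.48 in OCI, and 7 were higher at an unadjusted p under 0.05. Of these, CD74 and CIITA differed by at least 1 in both lines. OE was the highest library of both lines for 1 of the 13 class II genes, and WT was the lowest for 6. The median fitted difference of 1.29 was 0.60 without the OCI WT library and 2.15 without the H929 WT library. MHC class I genes had smaller medians, with 10 of 17 higher in both lines and median changes of 0.12 (H929) and 0.42 (OCI). HLA-B had 441 FPKM in H929 OE and 443 FPKM in OCI OE, against 241 FPKM in H929 WT and 138 FPKM in OCI WT (1.27 ± 0.29). Protein-treated cells had more HLA-B than OE cells, with 579 FPKM (H929) and 596 FPKM (OCI). OE was the highest library of both lines for 1 of the 17 class I genes, and WT was the lowest for 6. HLA genes resemble each other and vary between people, so their counts depend on how reads were assigned.

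NF-kB target genes respond to cytokine and survival signals in plasma cells, and 19 of the 29 found were tested. Of the 19, 13 were higher in both lines and 2 lower in both, with median changes of 0.37 (H929) and 0.83 (OCI). TNFAIP3, the A20 protein that restrains NF-kB, had 9.55 FPKM in H929 OE and 12.7 FPKM in OCI OE, against 2.60 FPKM in H929 WT and 3.36 FPKM in OCI WT (1.60 ± 0.31, limma adjusted p = 0.536). It stood higher in protein-treated cells, at 32.3 FPKM (H929) and 29.9 FPKM (OCI). NFKBIA, the inhibitor IkB-alpha, had 33.0 and 64.3 FPKM in H929 OE and OCI OE, against 31.0 and 18.8 FPKM in H929 WT and OCI WT, close to WT in H929 and above it in OCI. OE was the highest library of both lines for 0 members, WT was the lowest for 6, and the list's median fitted difference of 0.65 was 0.26 without the OCI WT library and 1.05 without the H929 WT library.

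**Figure D4:**
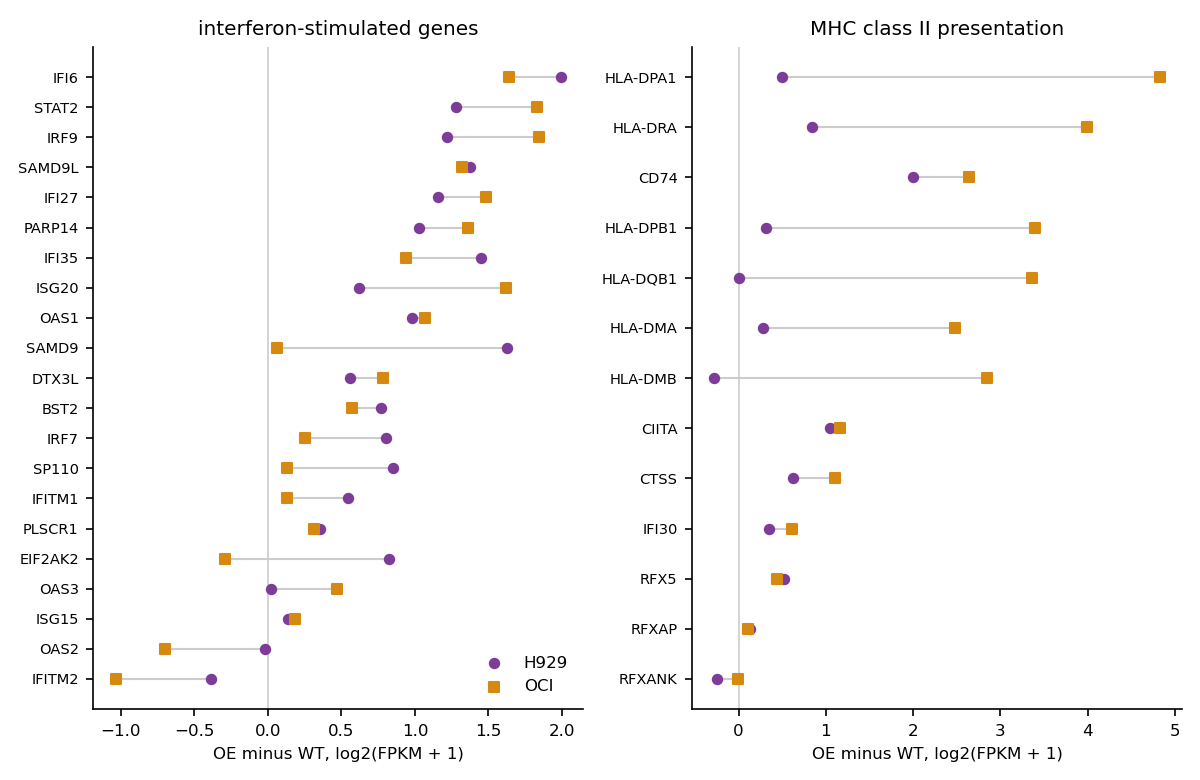
Change (OE minus WT, log2(FPKM + 1), linear axes) of 21 interferon-stimulated genes (left) and 13 MHC class II genes (right) in H929 (circles) and OCI (squares). 18 of the 21 plotted interferon-stimulated genes are above 0 in both lines, and the HLA class II genes are far higher in OCI than in H929.

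The partners of AIMP1 had no shared direction. Of the complex's 11 tested members, AIMP1 included, 4 were higher in both lines and 4 lower in both, with median changes of 0.07 (H929) and -0.06 (OCI). The other non-enzymatic members were lower: EEF1E1 had 12.3 FPKM in H929 OE and 16.9 FPKM in OCI OE, against 21.5 FPKM in H929 WT and 28.1 FPKM in OCI WT (-0.73 ± 0.37), and AIMP2 had 29.6 FPKM in H929 OE and 38.8 FPKM in OCI OE, against 46.3 FPKM in H929 WT and 49.1 FPKM in OCI WT (-0.48 ± 0.44). The enzyme KARS1, the lysyl-tRNA synthetase, had 105 and 113 FPKM in H929 OE and OCI OE, against 137 and 130 FPKM in H929 WT and OCI WT. QARS1, the glutaminyl-tRNA synthetase, had 177 and 232 FPKM in H929 OE and OCI OE, against 168 and 167 FPKM in H929 WT and OCI WT. None of these differences passed the test, and AIMP1 was the only member that differed by at least 1 in both lines.

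Of 12 tested cytosolic tRNA synthetases outside the complex, 0 were higher in both lines and 8 lower in both, with median changes of -0.42 (H929) and -0.05 (OCI). YARS1, for tyrosine, had 59.1 FPKM in H929 OE and 95.0 FPKM in OCI OE, against 108 FPKM in H929 WT and 97.4 FPKM in OCI WT. GARS1, for glycine, had 77.2 and 77.0 FPKM in H929 OE and OCI OE, against 97.2 and 97.7 FPKM in H929 WT and OCI WT. OE was the lowest library of both lines for these 2 genes. ATF4 target genes, which include many synthetases and amino acid transporters, were mixed, with 10 of 32 higher in both lines and 14 lower in both. The median fitted difference of the 12 synthetases, -0.24, was -0.08 without the OCI OE library and -0.52 without the OCI WT library.

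Genes that build ribosomes were lower, while genes of ribosomal proteins were higher. Of 34 tested ribosome biogenesis genes, 31 were lower in both lines and 0 higher in both, with median changes of -0.86 (H929) and -0.49 (OCI), and 6 were lower at an unadjusted p under 0.05. BYSL, which helps to assemble the small subunit, had 17.8 FPKM in H929 OE and 23.4 FPKM in OCI OE, against 43.0 FPKM in H929 WT and 41.2 FPKM in OCI WT (-1.01 ± 0.45, limma adjusted p = 0.742). UTP20, needed for maturation of the small subunit, had 3.93 and 3.09 FPKM in H929 OE and OCI OE, against 7.65 and 8.90 FPKM in H929 WT and OCI WT. NCL, the nucleolar protein nucleolin, had 284 and 200 FPKM in H929 OE and OCI OE, against 359 and 377 FPKM in H929 WT and OCI WT. OE was the lowest library of both lines for 1 of the 34 genes, whereas WT was the highest for 15.

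Of 78 tested cytosolic ribosomal protein genes, 53 were higher in both lines and 1 lower in both, with median changes of 0.10 (H929) and 0.55 (OCI). RPS27, of the small subunit, had 3440 FPKM in H929 OE and 3734 FPKM in OCI OE, against 1727 FPKM in H929 WT and 2089 FPKM in OCI WT (0.92 ± 0.36). RPL31, of the large subunit, had 1301 and 1354 FPKM in H929 OE and OCI OE, against 801 and 776 FPKM in H929 WT and OCI WT. For 0 of the 78 was OE the highest library of both lines, and for 38 WT was the lowest. With quantile normalization the median fitted difference of 0.32 was 0.09. Ribosomal protein genes have many near-identical pseudogene copies, so their values are uncertain.

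Most S phase and proteasome genes were lower. Of 43 tested S phase and DNA replication genes, 33 were lower in both lines and 3 higher in both, with median changes of -0.38 (H929) and -0.37 (OCI). OE was the lowest library of both lines for 2 of the 43, and WT was the highest for 10. TYMS, thymidylate synthase, had 103 FPKM in H929 OE and 73.2 FPKM in OCI OE, against 185 FPKM in H929 WT and 165 FPKM in OCI WT (-0.999 ± 0.53). It was lower still in protein-treated H929 cells, at 83.5 FPKM, and in an OCI knockdown library, at 38.3 FPKM. Mitosis genes showed no shared direction, with 7 of 32 higher in both lines and 6 lower in both. Of 32 proteasome subunits, 23 were lower in both lines and 3 higher in both, PSMD11 with 74.4 and 77.2 FPKM in H929 OE and OCI OE, against 144 and 114 FPKM in H929 WT and OCI WT. Protein-treated cells had less PSMD11 than OE cells, with 71.9 FPKM (H929) and 43.7 FPKM (OCI). For 0 of the 32 was OE the lowest library of both lines, and for 8 WT was the highest. The median fitted difference of proteasome genes, -0.28, was -0.11 without the H929 OE library and -0.46 without the OCI OE library.

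Growth-arrest genes were higher in more cases than lower. Of 23 tested p53 target and growth-arrest genes, 14 were higher in both lines and 6 lower in both, with median changes of 0.34 (H929) and 0.26 (OCI). OE was the highest library of both lines for 2 of the 23, and WT was the lowest for 3. CCNG2, an atypical cyclin of resting cells, had 12.04 FPKM in H929 OE and 6.18 FPKM in OCI OE, against 2.52 FPKM in H929 WT and 1.64 FPKM in OCI WT (1.67 ± 0.44, limma adjusted p = 0.742). BTG2, an antiproliferative gene, had 12.6 and 60.5 FPKM in H929 OE and OCI OE, against 4.96 and 13.7 FPKM in H929 WT and OCI WT. Protein-treated cells had more BTG2 than OE cells, with 28.9 FPKM (H929) and 118 FPKM (OCI). CCNG2 was above OE in protein-treated H929 cells, at 13.3 FPKM, and in an OCI knockdown library, at 6.62 FPKM. MDM2, which p53 induces, was lower in both lines, with 23.1 and 22.3 FPKM in H929 OE and OCI OE, against 30.8 and 24.1 FPKM in H929 WT and OCI WT.

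Other groups were described by fewer shared differences. Of 31 tested genes of cholesterol and fatty acid synthesis, 17 were lower in both lines and 3 higher in both, with median changes of -0.15 (H929) and -0.47 (OCI). SCD, a desaturase of fatty acids, had 22.5 FPKM in H929 OE and 55.7 FPKM in OCI OE, against 42.7 FPKM in H929 WT and 178 FPKM in OCI WT (-1.28 ± 0.40), and the list's median fitted difference, -0.27, was 0.17 without the OCI WT library. Of 34 histone and chromatin regulators, 22 were lower in both lines and 3 higher in both. The acetyltransferase CREBBP had 7.69 and 11.9 FPKM in H929 OE and OCI OE, against 13.9 and 24.3 FPKM in H929 WT and OCI WT, and OE was its lowest library in both lines. Of 28 glycolysis and hypoxia genes, 11 were higher in both lines and 7 lower in both. NDRG1, which hypoxia and growth arrest induce, had 20.1 and 42.0 FPKM in H929 OE and OCI OE, against 7.47 and 13.9 FPKM in H929 WT and OCI WT.

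Genes of alpha-arrestins and glucose sensing did not follow TXNIP as a group. ARRDC3, a related arrestin, had 39.9 FPKM in H929 OE and 20.9 FPKM in OCI OE, against 19.9 FPKM in H929 WT and 12.5 FPKM in OCI WT (0.83 ± 0.32), and OE was its highest library in both lines. SLC2A1, the glucose transporter GLUT1, had 7.99 and 16.3 FPKM in H929 OE and OCI OE, against 25.6 and 18.8 FPKM in H929 WT and OCI WT. Of the 11 tested members, 4 were higher in both lines and 2 lower in both.

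**Figure D5:**
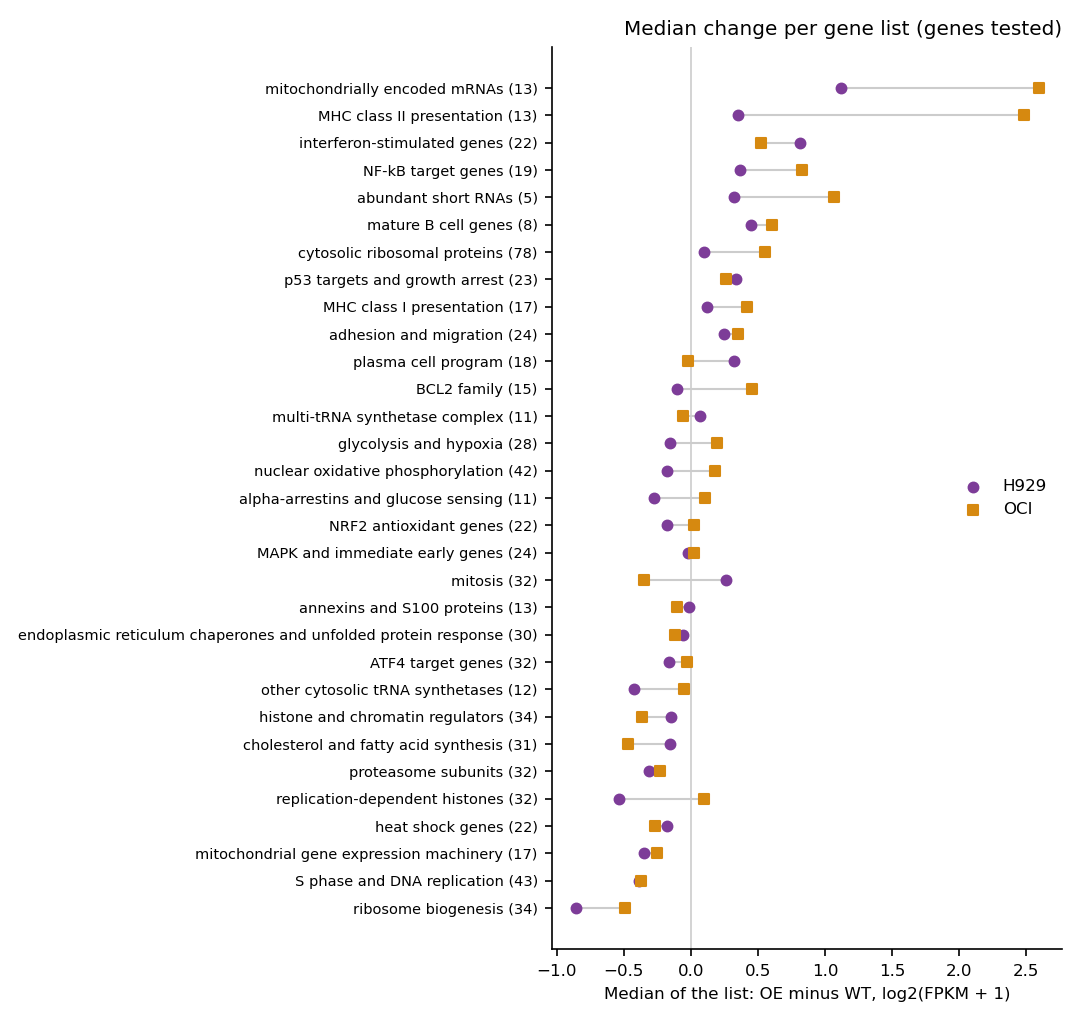
Median change (OE minus WT, log2(FPKM + 1), linear axis) of each gene list with at least 5 tested genes in H929 (circles) and OCI (squares), with the number of tested genes in brackets. The mitochondrial mRNAs lie highest and ribosome biogenesis lowest, and the median of all tested genes is 0.00 in H929 and 0.01 in OCI.

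Plasma cell genes were mixed, with 9 of 18 tested members higher in both lines and 4 lower in both. The receptor BCMA, TNFRSF17, had 29.6 FPKM in H929 OE and 54.8 FPKM in OCI OE, against 38.8 FPKM in H929 WT and 107 FPKM in OCI WT. XBP1, the transcription factor of the secretory program, had 474 and 686 FPKM in H929 OE and OCI OE, against 375 and 323 FPKM in H929 WT and OCI WT. Only 2 of 30 endoplasmic reticulum chaperone and unfolded protein response genes, XBP1 and ERO1B, were higher in both lines, and 10 were lower in both. HSPA5, the chaperone BiP, had 166 and 96.4 FPKM in H929 OE and OCI OE, against 234 and 142 FPKM in H929 WT and OCI WT.

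Markers of 4 other cell types were summed, and their part in the differences above was not tested. The 16 myeloid markers summed to 12.6 FPKM in H929 OE and 16.5 FPKM in OCI OE, against 8.53 FPKM in H929 WT and 5.85 FPKM in OCI WT. The 16 stromal and endothelial markers summed to 8.46 and 6.08 FPKM in H929 OE and OCI OE, against 6.35 and 2.11 FPKM in H929 WT and OCI WT, and the 18 T and NK markers to 8.14 and 2.81 FPKM in H929 OE and OCI OE, against 4.59 and 2.40 FPKM in H929 WT and OCI WT. The 14 erythroid markers summed to 0.107 and 135 FPKM in H929 OE and OCI OE, against 0.479 and 9.32 FPKM in H929 WT and OCI WT. Most of the OCI OE sum was HBE1, an embryonic globin, with 112 FPKM in OCI OE and 4.34 FPKM in OCI WT.

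The test of whether the change differed between the lines, on 8 group means with 2 residual degrees of freedom, called 1 of 12872 genes (0.00777%), the small nuclear RNA gene RNVU1-7. No MHC class II gene was called by it, so their larger difference in OCI was not shown to differ from that in H929.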

How the data were processed

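Per the labels, poly(A) RNA was sequenced as paired ends, and the authors deposited 1 table of FPKM values for 10 libraries. The tools, per the submitters' processing notes, included Bowtie 0.12.2, HISAT2 2.0 and StringTie 1.3.0, with no role given for any. The notes name a mouse build and the labels' protocol mentions adipose RNA, whereas the gene identifiers are human, so no coordinates were taken from the files. How multi-mapping reads were treated is not stated, and a listed 0 can stand for an estimate that failed. limma 3.58.1 in R 4.3.3 fitted log2(FPKM + 1) of 12872 genes with cell line and manipulation as terms (5 residual degrees of freedom, variance trend, two-sided p-values, Benjamini-Hochberg). The fit with both terms was checked on simulated data. Of 919 entries in 35 gene lists, 914 were found. Members and lists were chosen with earlier results of these data known. Named genes were AIMP1, MT-ND5, ANXA1 and TXNIP, the 15 protein-coding genes per direction with the largest smaller within-line change and no 0, and up to 6 members per list by the same measure, with lists of up to 13 members whole. NFKBIA, ISG15, OAS2, IFITM2, DTX3L, POLRMT, NCL, MDM2, PHF19, HBE1, JCHAIN, IRF4, MT-RNR1, MT-RNR2, MARCKS, SATB1, ERBB2, ACTB and ACTG1 fall outside that rule and were added after their values were seen. Some single-gene results are not reported here.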

Additional observations from a re-analysis of the deposited data

Results flagged for a closer look

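RNVU1-7, a gene of the U1 small nuclear RNA family, was the only gene of 12872 whose difference between OE and WT itself differed between the lines in the test over 8 group means. The change in OCI minus the change in H929 was 12.29 ± 0.54 (limma adjusted p = 0.0270, with 299 genes at an unadjusted p under 0.05). It was listed at 0 in H929 OE and had 1473 FPKM in OCI OE, against 678 FPKM in H929 WT and 199 FPKM in OCI WT, and it was listed at 0 in the 6 other libraries. It belongs to a multi-copy family, and the test rests on the spread of the 2 pairs of knockdown libraries, all listed at 0.

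The median change of mitosis genes was 0.26 in H929 and -0.35 in OCI, so that OCI minus H929 was -0.61. This difference between the lines was not tested.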

How the results depend on the processing

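The 30 genes named as markers or for the widest shared differences kept their direction in all 624 fits over 21 alternative settings, a direction that their choice had fixed. MT-ND5 passed the threshold with no expression filter (limma adjusted p = 0.0297), with a minimum mean of 5 FPKM (0.0455), after quantile normalization (0.02996) and without OCI knockdown replicate 2 (0.0455), within a range of 0.0297 to 0.999 over all settings. A pseudocount of 0.1 gave 453 genes at least 2-fold higher and 134 lower in both lines, and a minimum mean of 5 FPKM gave 122 and 26 among 9043 genes. With no filter, over 27094 genes, 7 genes were called higher and 10 lower. Single genes were called higher (1 each) with the minimum of 5 FPKM, after quantile normalization and with the 4 OE and WT libraries alone. Knockdown libraries carry the numbers 1 and 2 in the labels, which the lines share only as numbers; with the number as a replicate block, 1 gene was called higher and 7 genes differed between the lines. Genes that differed between the lines numbered 0 with a pseudocount of 0.1, 1289 with no filter, 8 with the minimum of 5 FPKM, 5 with the filter on the 4 libraries, 8 after median centring and 6 without the variance trend. Leaving out 1 library at a time gave 0 to 4 genes called higher, with 4 without H929 OE and 2 each without OCI OE or OCI knockdown replicate 2. It gave 0 to 5 called lower, with 5 without H929 WT and 1 each without H929 OE, OCI OE, OCI WT or OCI knockdown replicate 1. It gave 0 to 1 genes that differed between the lines, with 0 without any 1 of the knockdown libraries. A group left with 1 library is assumed there to vary like the others. The cause of these shifts was not tested. Median fitted differences of 14 lists took the opposite sign to their values over all libraries in at least 1 setting. Without OCI WT these were heat shock (0.20), cholesterol and fatty acid synthesis (0.17), mitosis (0.30), annexins and S100 proteins (0.08) and alpha-arrestins (-0.22). Without OCI OE they were nuclear oxidative phosphorylation (-0.18), glycolysis and hypoxia (-0.28), the BCL2 family (-0.15) and abundant short RNAs (-1.92). Without H929 OE they were MAPK and immediate early genes (0.05), NRF2 genes (0.16) and replication-dependent histones (0.01), and without H929 WT ATF4 targets (0.21). With the filter on the 4 libraries the T and NK cell list had 0.38. The T and NK cell and stromal lists gave no value at the minimum of 5 FPKM. Depth per library is known only in relative terms, so no counting error could be given.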
